A study of Mus musculus with 36 samples.

Results

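To ask how much X-linked gene silencing is left after day 5 in cells with the SMCHD1 K518E mutation, allelic ChrRNA-seq libraries at day 5 and day 7 of differentiation were compared. They comprise 4 of the 36 libraries of the series, with 2 per day, and were chosen by the line and day in their labels. A library of the same line without doxycycline (dox) and another after 24 h of dox, each sequenced once, give the earlier states. K518E is a biallelic point mutation in the GHKL ATPase domain of SMCHD1, introduced into Halo-SMCHD1 mouse embryonic stem cells (mESCs), and the libraries come from a single clone, A4. The parental Halo-SMCHD1 line and the G137E line, which carries another mutation of the same domain, served as comparisons. They have 2 libraries each at day 5 and 3 each at day 7.

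The 3 lines share an F1 Cast x 129S XX background, N-terminal Halo tags on native SMCHD1, an eGFP-CIZ1 transgene in the ROSA26 locus, and a TetOn promoter in place of the native Xist promoter on the 129S allele. Dox was added at 1 µg/ml, so that the 129S chromosome became the inactive X (Xi) and the Cast chromosome stayed the active X (Xa). The cultures without dox or with dox for 24 h were undifferentiated mESCs. For days 5 and 7, cells were differentiated as a monolayer under dox, without leukaemia inhibitory factor. Xist therefore starts from an inducible promoter and always from the same allele, unlike the random choice in an embryo. Silencing was read as the share of chromatin-bound transcripts that come from the Xi, Xi/(Xi+Xa), for 242 X-linked genes between the centromeric end and Xist, where 0.5 is equal expression of both alleles and 0 is complete silencing. Smchd1 and markers of pluripotency and differentiation are autosomal or not in the table, so neither the mutation nor the cell state could be checked.

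Xist RNA coats the chromosome from which it is transcribed and recruits factors that silence most of its genes within days. SMCHD1 is a non-canonical SMC protein that accumulates on the Xi as cells differentiate, and it is known for maintaining silencing and for promoting DNA methylation of CpG islands on the Xi. Some genes, called escapees, are known to stay partly active on the Xi in many tissues, and among them are Kdm6a, Ddx3x and Eif2s3x.

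Most silencing in K518E was complete by day 5, and what was left was small and spread over many genes. The median gene was at 0.524 without dox and 0.212 after 24 h of dox. At day 5 the library medians were 0.0371 and 0.0432, and at day 7 they were 0.0284 and 0.0325. Both day 7 libraries were below both day 5 libraries. The mean of the library medians was 0.0402 ± 0.00432 (SD, n = 2) at day 5 and 0.0304 ± 0.00286 (SD, n = 2) at day 7, a difference of -0.00972 (two-sided exact permutation test, p = 0.333, the smallest p that 2 against 2 libraries allow). Averaged over genes, the level was 0.0767 and 0.0796 in the day 5 libraries and 0.0674 and 0.0722 at day 7, a difference of -0.00835 (exact permutation test, p = 0.333). When each gene was first divided by 2 times its level without dox, the libraries of the days overlapped.

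Of the drop in the mean level from no dox to day 7, 64.0% had taken place after 24 h of dox and 98.2% by day 5. The day 5 share was 97.4% to 99.0% over the pairs of a day 5 and a day 7 library. It was 93.7% in Halo-SMCHD1 (90.7% to 96.7%) and 93.2% in G137E (90.4% to 97.1%). On the log2 odds scale the K518E share was 94.3%. For 237 genes that lost more than 0.1 in all, the median gene had reached 98.6% of its silencing by day 5 (quartiles 96.6% to 100.3%). Of these, 69 (29.1%) were already at or below their day 7 level at day 5, and 15 (6.33%) had reached less than 90%.

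**Figure D1:**
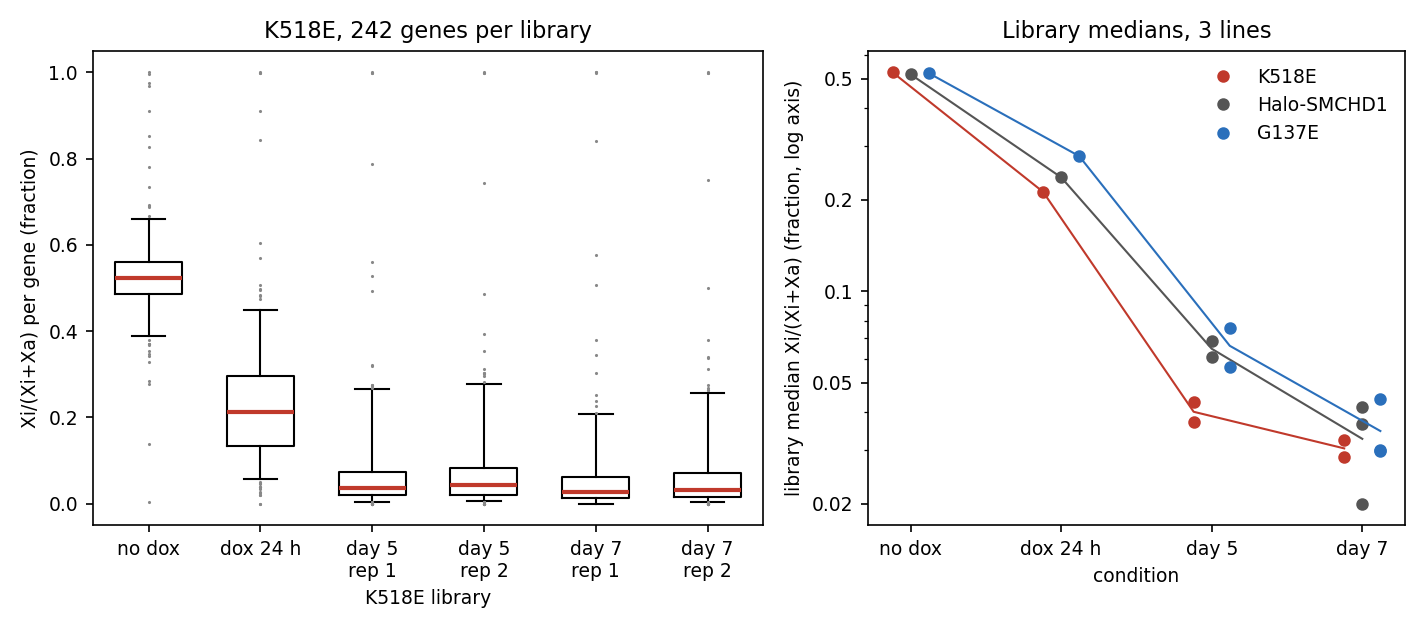
Left, Xi/(Xi+Xa) of 242 genes in each K518E library (red line, median; box, quartiles; whiskers, 5th to 95th percentile; dots, genes beyond them). Right, the median of each library of K518E, Halo-SMCHD1 and G137E on a log axis, with lines through the mean of each condition. In K518E the medians go from 0.0371 and 0.0432 at day 5 to 0.0284 and 0.0325 at day 7, while Halo-SMCHD1 starts from 0.0688 and 0.0606 at day 5.

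Gene by gene, 168 of 242 genes were lower at day 7 than at day 5 by the mean of the libraries, 72 were higher and 2 were equal. The median gene differed by -0.00637. Both day 7 libraries lay below both day 5 libraries for 102 genes (42.1%), and both lay above for 16 genes (6.61%). In Halo-SMCHD1 and G137E all day 7 libraries lay below all day 5 libraries for 50.8% and 46.3% of genes and above for 1.24% and 0.826%, but with 3 libraries at day 7 this criterion is stricter there and the shares are not compared with those of K518E. The replicates of a gene, taken as single libraries, differed by a median of 0.0085 at day 5 and 0.00872 at day 7. The means of the days differed by a median of 0.00935. Means of 2 libraries vary less than single libraries, so these sizes are not directly comparable. With limma and Benjamini-Hochberg adjustment over all genes, 1 gene (0.413%) passed a threshold of 0.05, and 11 had an unadjusted p below 0.05. The gene that passed was Rab39b, which fell. No gene passed as higher.

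In the same fit, 23 genes (9.5%) differed between the days in Halo-SMCHD1, 22 of them (9.09% of all genes) lower at day 7. In G137E 18 (7.44%) differed, all lower. These lines have 3 libraries at day 7 against 2 in K518E, which gives them smaller standard errors. The spread of each gene was estimated over all 3 lines and was the same in each of these tests. With unequal numbers of libraries these counts are not directly comparable, and they do not test whether the lines differ. The library median differed by -0.0320 in Halo-SMCHD1 and by -0.0314 in G137E (two-sided exact permutation tests, p = 0.1 each, the smallest that 2 against 3 allow). At day 7 the median of the ratio to day 5 was 0.816 in K518E, 0.598 in Halo-SMCHD1 and 0.601 in G137E. The difference between the changes in K518E and Halo-SMCHD1 was itself 0.0223 for the library medians (exact permutation of the line labels within each day, 60 arrangements, p = 0.217) and 0.0198 for the means over genes (p = 0.183). Against G137E the same exact permutation gave 0.0217 (p = 0.217) and 0.0224 (p = 0.183). The lines lay apart mostly at day 5, where the mean of library medians was 0.0402 in K518E, 0.0647 in Halo-SMCHD1 and 0.0662 in G137E. At day 7 it was 0.0304, 0.0327 and 0.0347. The smallest p that 60 arrangements allow is 0.0167. The test did not show that the change was smaller in K518E, and with so few libraries it does not decide this. In the published peer review the authors state that analysis of the K518E mutation was added in revision. The sources do not say when the libraries of each line were prepared. A batch that goes with the line cannot be told apart from the mutation. By gene, 1 of 242 passed in each of these contrasts (limma, 0.413%), again Rab39b, which was at 0 in the other lines at both days, with 17 genes at an unadjusted p below 0.05 against Halo-SMCHD1 and 20 against G137E.

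Rab39b encodes a small GTPase of vesicle traffic that is best known in neurons. Its Xi/(Xi+Xa) was 0.605 without dox and 0.15 after 24 h of dox in K518E. The day 5 libraries were at 0.0408 and 0.0208, and both day 7 libraries were listed at 0. On the log2 odds scale the difference was -2.03 (SE 0.23, limma adjusted p = 0.00151). All day 5 and day 7 libraries of Halo-SMCHD1 and G137E were listed at 0, so the spread of this gene in the fit came from the K518E day 5 pair alone. With K518E libraries only, or with untransformed fractions, it did not pass (limma adjusted p = 0.256 and 0.175). Against either line the difference of changes was -2.03 (SE 0.32, limma adjusted p = 0.0197 for each), but a gene listed at 0 at day 5 could not fall in those lines, so this does not show that the lines differ. With the replicate block it did not pass (limma adjusted p = 0.162). Leaving out either K518E day 7 library gave an adjusted p of 0.123 for both contrasts, and leaving out a library of the other line also ended the call in 3 of 5 cases for Halo-SMCHD1 and in all 5 for G137E.

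Being listed at 0 in both day 7 libraries after a positive value in both at day 5 was shared by 3 other genes, named here after their values were seen. Nudt10, a hydrolase of inositol pyrophosphates, was at 0.0645 and 0.0435 at day 5. Smarca1, the SNF2L subunit of ISWI chromatin remodellers, was at 0.0118 and 0.0274. Foxo4, a forkhead transcription factor, was at 0.00922 and 0.00957. None of the 3 passed the test. In the other direction, 4 genes (Zfp300, 2010204K13Rik, Frmd7 and Kis2) were at 0 in both day 5 libraries and above 0 in at least 1 day 7 library.

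The largest difference between the days was at Wdr44, which encodes a Rab11-binding protein of endosome recycling. Its level was 0.57 without dox and 0.371 after 24 h of dox, then 0.527 and 0.394 at day 5, and 0.209 and 0.313 at day 7. The day 5 libraries were both above the 24 h library, and the day 7 libraries were both below it. By day 5 it had reached 35.4% of its silencing, the lowest share of all genes. The log2 odds difference was -1.26 (SE 0.54, limma adjusted p = 0.931), and the replicates of each day differed by more than 0.1. In Halo-SMCHD1, Wdr44 was at 0.25 in both day 5 libraries and at 0.143, 0.222 and 0.194 at day 7. In G137E it was at 0.2 and 0.391 at day 5 and at 0.0833, 0.171 and 0.182 at day 7. All day 7 libraries of these lines were below their day 5 libraries, so a fall of this gene was not particular to K518E.

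Next was 6330419J24Rik, at 0.634 without dox, 0.297 after 24 h, 0.202 and 0.145 at day 5, and 0.0734 and 0.0629 at day 7. Its days were apart by more than its replicates (log2 odds difference -1.39, SE 0.33, limma adjusted p = 0.247). Eif2s3x, the gamma subunit of the translation initiation factor eIF2, went from 0.274 and 0.3 at day 5 to 0.2 and 0.256 at day 7. Rbmx2, a component of the spliceosome, was at 0.272 and 0.296 and then at 0.15 and 0.268. Both genes still had a substantial Xi level at day 7, and their day 7 replicates were further apart than their day 5 replicates. Arhgef6, an exchange factor for Rac and Cdc42, was at 0.0263 and 0.125 at day 5 and at 0 and 0.023 at day 7, so that most of its difference came from a single day 5 library. Pgrmc1, a haem-binding membrane protein, was at 0.0583 and 0.0745 and then at 0.0068 and 0.0101. The other genes among the 10 largest differences were Slc35a2, the Golgi transporter of UDP-galactose, 4933407K13Rik, the mitophagy receptor Fundc1 and Ppp1r3f, a regulatory subunit of protein phosphatase 1. Their day 5 values ranged from 0.0667 to 0.235 and their day 7 values from 0.02 to 0.167. None of these genes passed the limma test.

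**Figure D2:**
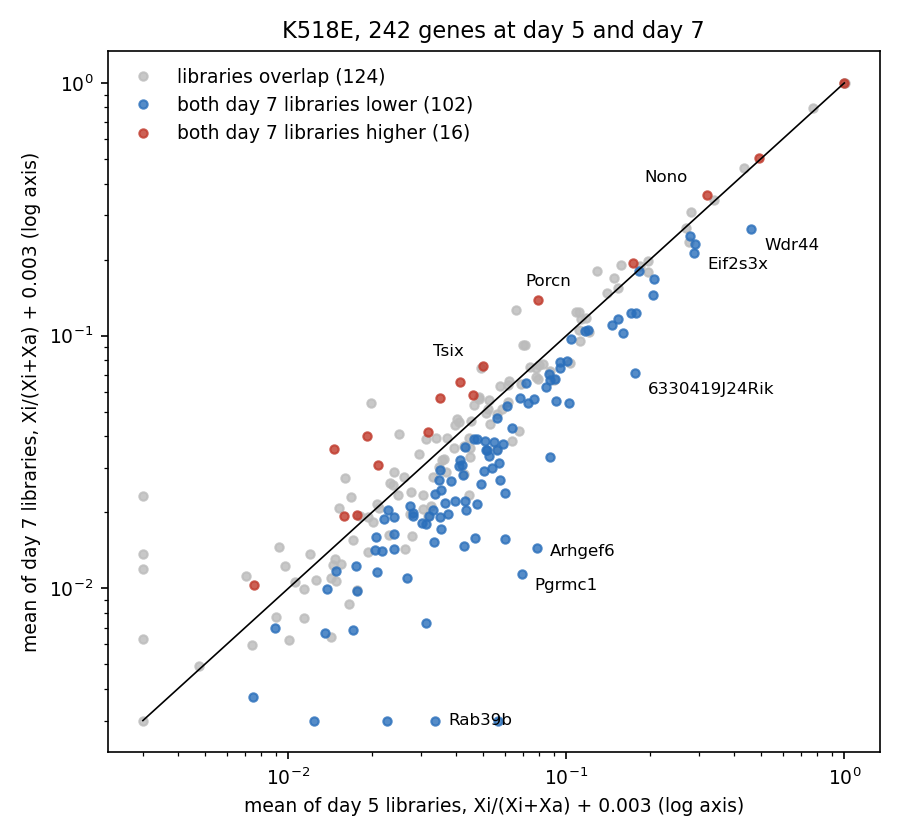
Mean Xi/(Xi+Xa) of 242 genes in the 2 K518E day 5 libraries (x) and the 2 day 7 libraries (y), both plus 0.003 on log axes, with the line of equal values. Blue genes have both day 7 libraries below both day 5 libraries (102) and red genes above (16). Wdr44, 6330419J24Rik, Arhgef6 and Pgrmc1 are labelled below the line, and Rab39b lies at the lower edge because it is listed at 0 at day 7.

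The 15 genes with less than 90% of their silencing by day 5 were Wdr44, Eif2s3x, Slc35a2, 6330419J24Rik, Rbmx2, Arhgef6, Suv39h1, Ppp1r3f, Ssr4, Vma21, 4933407K13Rik, Pgrmc1, Fundc1, Nudt10 and Utp14a. This set was made from the same day 5 and day 7 values and is a description. The share was 74.4% for Eif2s3x, 80.3% for Slc35a2, 81.3% for 6330419J24Rik and 85.7% for Rbmx2, and it was 86.9% or more for the rest. Their day 5 means ranged from 0.054 to 0.461 and their day 7 means from 0 to 0.261. Suv39h1, an H3K9 methyltransferase, was at 0.217 and 0.191 at day 5 and at 0.142 and 0.189 at day 7. Of the 15 genes, 14 had day 7 libraries below both day 5 libraries in K518E, as did 42.1% of all genes, but the set was chosen from these values. In the other lines, 5 of them did so in Halo-SMCHD1, where 50.8% of all genes did, and 8 in G137E, where 46.3% did. The genes with less than 90% of their own silencing by day 5 numbered 63 in Halo-SMCHD1 and 60 in G137E.

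Among the 16 genes higher at day 7 in both libraries, the largest difference was at Porcn, the acyltransferase that lipidates Wnt proteins. It was at 0.0649 and 0.087 at day 5 and at 0.113 and 0.157 at day 7, after 0.325 at 24 h (limma adjusted p = 0.931). Nono, an RNA-binding protein of paraspeckles, was at 0.32 and 0.313 and then at 0.379 and 0.337. Tsix, the antisense RNA of Xist, was at 0.042 and 0.0526 and then at 0.062 and 0.0836, far below its 0.545 without dox. Tsix overlaps Xist on the other strand, and its values varied widely in the other lines. In Halo-SMCHD1 they were 0.469 and 0.0589 at day 5 and 0.186, 0.647 and 0.111 at day 7, and in G137E 0.615 and 0.105 at day 5 and 0.212, 0.0821 and 0.106 at day 7. Syn1, a protein of synaptic vesicles, and Amer1, a membrane adaptor of the Wnt pathway, were the other 2 of the largest 5. Each stayed at 0.0683 or below in all 4 libraries.

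Of these 16 genes, 5 were lower at day 7 without overlap in Halo-SMCHD1, 4 in G137E and 3 in both, namely Akap17b, Nkap and Ercc6l, which were named after their values were seen. Over all genes these shares were 50.8% in Halo-SMCHD1 and 46.3% in G137E. Ercc6l, a DNA translocase of mitotic chromosomes, was at 0.0412 and 0.0453 at day 5 and at 0.0507 and 0.0602 at day 7 in K518E. In G137E it was at 0.0878 and 0.113 and then at 0.0613, 0.0338 and 0.0541. The difference of changes for Ercc6l was 1.30 against G137E (SE 0.50, limma adjusted p = 0.57) and 1.15 against Halo-SMCHD1 (SE 0.50, limma adjusted p = 0.665). Neither passed, and the same held for Akap17b and Nkap.

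At day 7 few genes kept a high Xi level. The counts that follow include 4 genes that were above 0.75 without dox, Xist among them. In both libraries of the day, 76 genes were above 0.05 at day 5 and 70 at day 7, 37 and 34 were above 0.1, and 15 and 13 were above 0.2. At or below 0.05 in both libraries were 129 genes at day 5 and 150 at day 7. In Halo-SMCHD1 the genes above 0.1 in all libraries of the day numbered 55 at day 5 and 30 at day 7, and in G137E 55 and 29, where day 7 has 3 libraries and the count is stricter. By the mean of the K518E libraries, 10 of the genes at or below 0.05 at day 5 were between 0.05 and 0.1 at day 7, and the others of that class stayed in it. Of the 52 genes between 0.05 and 0.1, 21 were at or below 0.05 at day 7. Of the 26 between 0.1 and 0.2, only 4 moved to a lower class, and of the 17 above 0.2, only 2. In all, 32 genes (13.2%) were above 0.1 in all 4 libraries.

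Above 0.2 in all 4 K518E libraries were 13 genes, chosen by these levels. Xist itself was at 0.968 without dox and between 0.998 and 0.999 from 24 h on, since the induced allele is on the Xi. Ube2a, an E2 ubiquitin-conjugating enzyme, was at 1 in every library, C330007P06Rik at 0.997 or above, and the dynein light chain gene Dynlt3 at 0.91 without dox and 0.744 to 0.841 at days 5 and 7. These 4 genes were already high without dox. The fractions of Xist, Ube2a and C330007P06Rik did not fall below that level and show no silencing. Dynlt3 was at 87.5% of its level without dox at day 7. Slc25a5, the ADP/ATP translocase gene, was at 0.487 without dox, 0.492 and 0.487 at day 5 and 0.506 and 0.499 at day 7. Rpl10, a ribosomal protein gene, was at 0.559 and 0.303 at day 5 and 0.577 and 0.341 at day 7, so its replicates differed far more than its days. Both have near-identical copies elsewhere in the genome, and their values are uncertain.

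The other genes above 0.2 had lower levels at days 5 and 7 than without dox. Among them Wdr44 was lower and Nono higher at day 7 without overlap, as given above, and Pin4, Zfx and Plp2 had overlapping days. Pin4, a peptidyl-prolyl isomerase, was at 0.55 without dox, at 0.321 and 0.354 at day 5, and at 0.302 and 0.38 at day 7. Zfx, a zinc finger transcription factor, was at 0.276 and 0.278 and then at 0.345 and 0.264. Plp2, a membrane protein gene, was at 0.266 and 0.267 and then at 0.252 and 0.275. The histone H3K27 demethylase Kdm6a was at 0.269 and 0.283 and then at 0.227 and 0.264, with the days apart. Utp14a, needed for processing of ribosomal RNA, was at 0.243 and 0.303 and then at 0.207 and 0.257. At day 7 the mean was 36.4% of the level without dox for Utp14a, 44.7% for Kdm6a, 45.8% for Wdr44, 60.9% for Nono and 62.0% for Pin4.

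**Figure D3:**
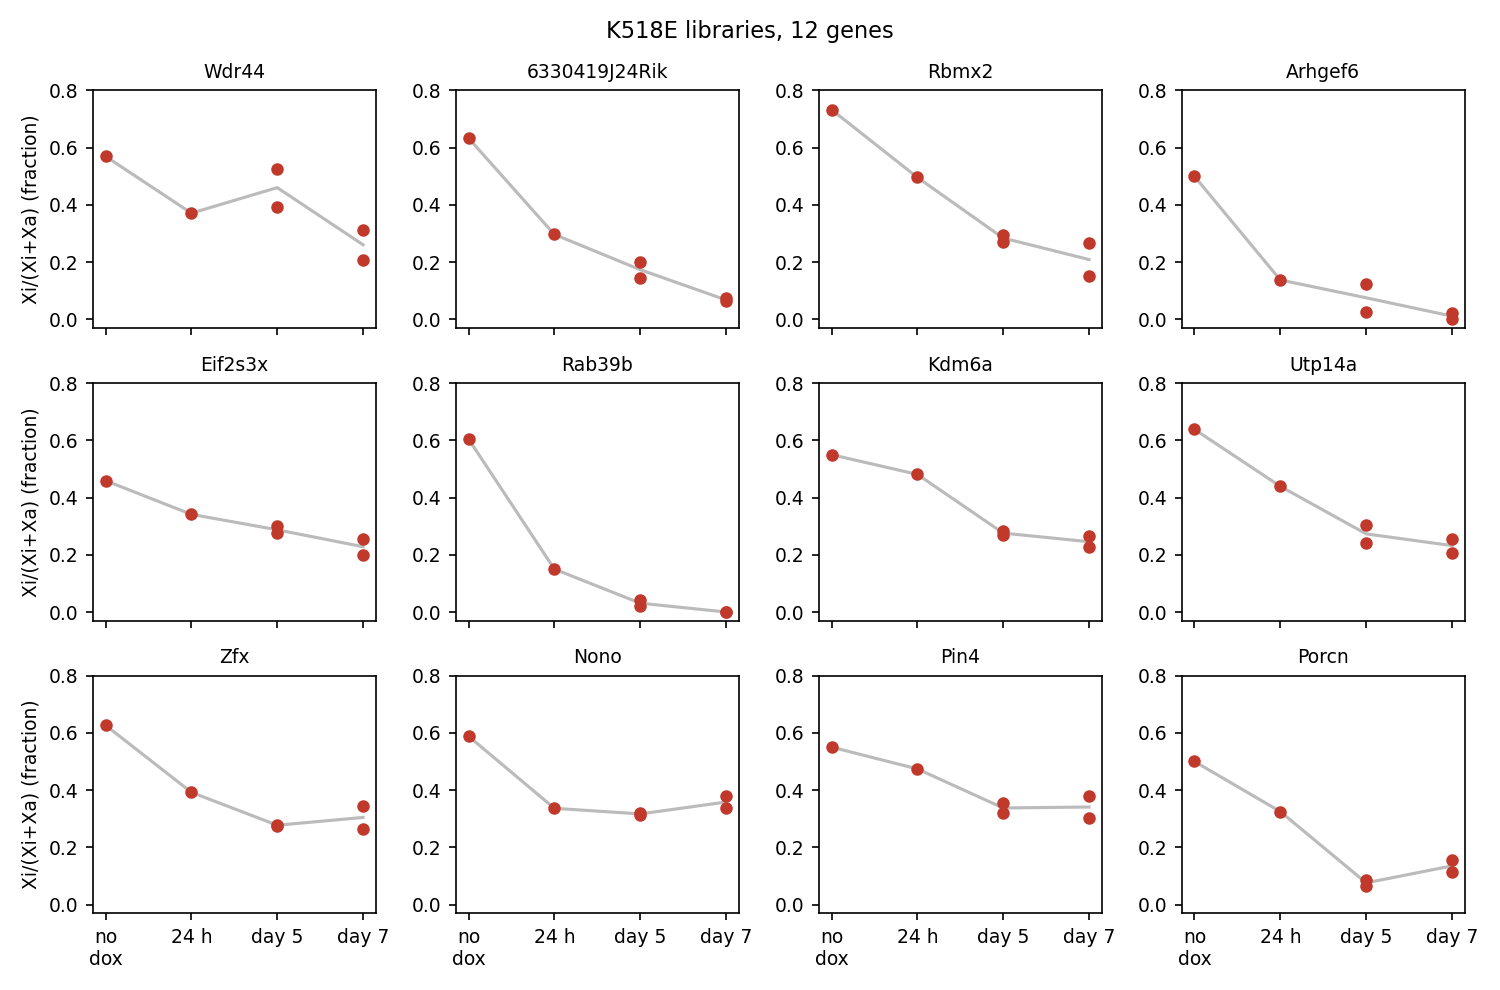
Xi/(Xi+Xa) of 12 genes in the 6 K518E libraries (points), with a line through the mean of each condition. Wdr44 is above its 24 h value in both day 5 libraries and below it in both day 7 libraries, whereas Kdm6a, Utp14a, Zfx, Nono and Pin4 stay between 0.207 and 0.38 at both days.

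Of 16 listed escapees, 8 were in the table, and 5 of these (62.5%) were above 0.1 in all 4 K518E libraries, against 13.2% of all genes. Of the 8, 7 were lower at day 7 and 5 were lower without overlap, against 42.1% of all genes, with a median difference of -0.0256. Ddx3x, an RNA helicase gene, was at 0.116 and 0.171 at day 5 and 0.105 and 0.11 at day 7. Shroom4, an actin regulator, was at 0.0344 and 0.0459 and then at 0.0154 and 0.0229, and the long non-coding RNA gene Firre was at 0.113 and 0.107 and then at 0.111 and 0.117. Ogt, the O-GlcNAc transferase, was at 0.119 and 0.115 and then at 0.099 and 0.105. None of the 8 passed the limma test. Relative to day 5 their difference was close to that of all genes, with a median ratio of day 7 to day 5 of 0.862 against 0.816.

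Around the X-inactivation centre 5 of 18 listed genes were measured, and 4 were higher at day 7. These include Xist, which was near 1 throughout. Tsix alone was higher without overlap (20% of the 5, against 6.61% of all genes). Lower without overlap were 0 of the 5, against 42.1% of all genes. The median difference of the 5 was 0.000487. Chic1 was at 0.0471 and 0.0404 at day 5 and at 0.0461 and 0.0547 at day 7, and the histone deacetylase gene Hdac8 was at 0.0405 and 0.0444 and then at 0.041 and 0.0449. Both differed less between days than between replicates.

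Chromatin and transcription genes numbered 30 of 46 listed, with 22 lower and 8 higher at day 7, 15 and 1 without overlap (50% and 3.33%, against 42.1% and 6.61% of all genes), and a median difference of -0.00816. Bcor, a corepressor, was at 0.0463 and 0.0624 at day 5 and 0.0204 and 0.0363 at day 7. Med14, a Mediator subunit, was at 0.0467 and 0.051 and then at 0.029 and 0.0354. For RNA processing and translation, 20 of 31 were measured, 13 were lower and 7 higher, 6 and 2 without overlap (30% and 10%), with a median of -0.00817. Mitochondrial and metabolic genes, 22 of 46, had 16 lower and 6 higher, 9 and 2 without overlap (40.9% and 9.09%), and a median of -0.00699. Maoa, monoamine oxidase A, was at 0.0479 and 0.0419 and then at 0.0166 and 0.0205. Hprt, of purine salvage, was at 0.0369 and 0.0672 and then at 0.0335 and 0.0365. None of the members of these 3 lists passed the limma test.

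A list headed ubiquitin pathway had 10 of 23 genes measured, with 9 lower, 5 of them without overlap (50%, against 42.1% of all genes), and a median of -0.0176. It held Wdr44 and the phosphatase regulator Igbp1, which are not known as ubiquitin enzymes. Uba1, the main E1 ubiquitin-activating enzyme, was at 0.0879 and 0.107 at day 5 and 0.0747 and 0.0783 at day 7, and the deubiquitinase Usp11 was at 0.0289 and 0.0356 and then at 0.015 and 0.0174. Cell division and cytoskeleton genes, 16 of 34, had 9 lower and 7 higher, 7 and 3 without overlap (43.8% and 18.8%, against 42.1% and 6.61%), and a median of -0.00425. The kinesin Kif4 was at 0.0373 and 0.0391 and then at 0.0269 and 0.0279, while filamin A (Flna) was at 0.0137 and 0.0156 and then at 0.0166 and 0.0163. Membrane trafficking and ion transport genes, 24 of 36, had 20 lower and 4 higher, 15 and 0 without overlap (62.5% and 0%, against 42.1% and 6.61%), and a median of -0.00753. This was the only list with a gene that passed, Rab39b. Vma21, an assembly factor of the proton pump of lysosomes, was at 0.0877 and 0.111 and then at 0.0577 and 0.0444. The medians of 5 of these 8 lists were within 0.003 of that of all genes, -0.00637, those of the escapees and the ubiquitin list were lower, and that of the X-inactivation centre was higher.

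To see whether the late difference depended on how fast a gene was silenced, genes were split into 3 classes by the 24 h library, which enters neither day. The 80 genes lowest after 24 h had medians of 0.0185 and 0.0192 at day 5 and 0.0126 and 0.0143 at day 7, with a median difference of -0.00352. The 81 in the middle differed by -0.00779. The 81 highest had medians of 0.0858 and 0.0872 at day 5 and 0.0654 and 0.0782 at day 7, with a median difference of -0.00856. The ratio of day 7 to day 5 went the other way, with medians of 0.742, 0.807 and 0.864. The numbers lower without overlap, 31, 35 and 36 (38.8%, 43.2% and 44.4%), were alike in all classes and near the 42.1% of all genes. In Halo-SMCHD1 the differences of the same classes were -0.0146, -0.0248 and -0.0408, and in G137E -0.0120, -0.0250 and -0.0407. Genes kept much of their order from 24 h on. Across 242 genes the Spearman correlation of the 24 h level was 0.738 with day 5 and 0.685 with day 7, and that of day 5 with day 7 was 0.883, against 0.874 and 0.858 between replicates of a day. Genes are not independent and share libraries, so no p is given.

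Along the chromosome, the difference between the days was smallest next to Xist. Of the 26 genes beyond 100 Mb, 13 were lower and 13 higher at day 7, and the median difference was 3.88e-05. Without overlap 4 were lower and 4 higher (15.4% each, against 42.1% and 6.61% of all genes). Of the 62 genes between 60 and 80 Mb, 50 were lower, with a median of -0.00833. Of these, 34 (54.8% of the 62, against 42.1% of all genes) were lower without overlap. The 3 windows of 20 Mb before 60 Mb had medians of -0.0068, -0.00697 and -0.00757, and the window from 80 to 100 Mb had -0.00241. The genes near Xist were among the lowest after 24 h, with a median of 0.147 against 0.287 for the 50 genes of the first 20 Mb. The Spearman correlation of the distance from Xist was 0.340 with the 24 h level, 0.162 with the day 7 level and -0.120 with the difference between days. In windows of 10 Mb the 11 genes from 30 to 40 Mb had a positive median as well, 0.00121, and they hold Ube2a, C330007P06Rik and Slc25a5.

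**Figure D4:**
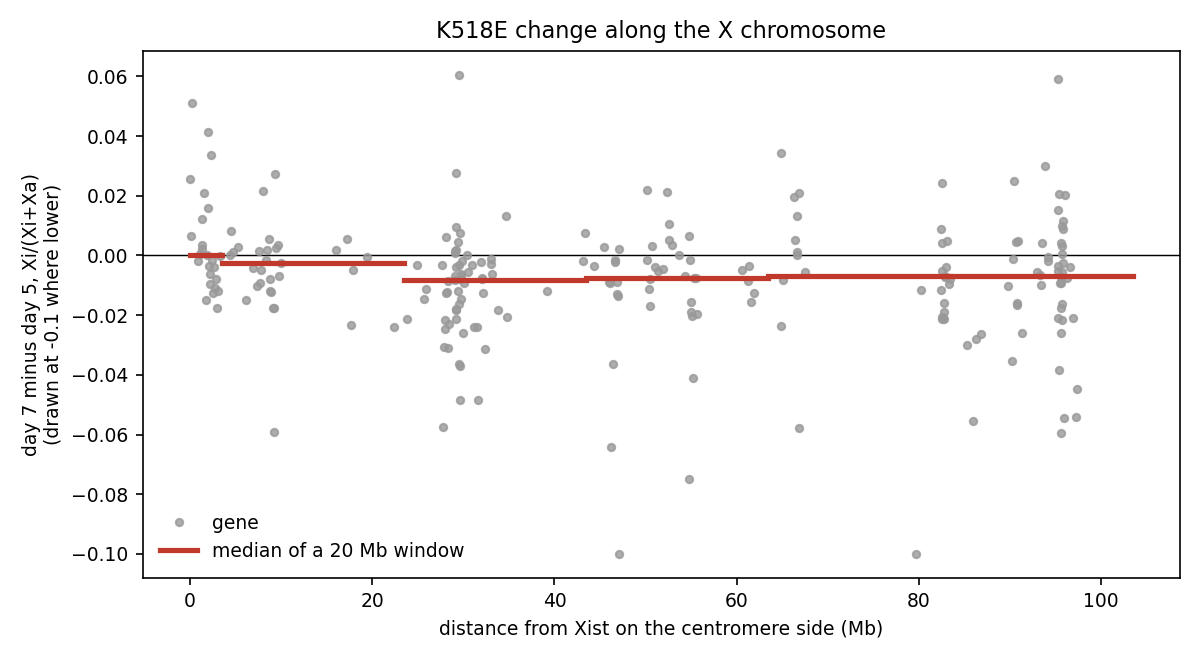
Difference of mean Xi/(Xi+Xa) between K518E day 7 and day 5 (y) against distance from Xist in Mb (x), for 241 genes (grey points) and as the median of each 20 Mb window (red lines). Wdr44 and 6330419J24Rik, beyond the axis, are drawn at -0.1. The window next to Xist has a median of 3.88e-05 and the others lie between -0.00833 and -0.00241.

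Since SMCHD1 is known for its part in CpG island methylation on the Xi, the CG dinucleotides in promoters were counted, a measure chosen after the other values were seen. RefSeq promoters (GRCm38.p6, 250 bases before to 50 after the start) were matched for 198 of 242 genes (81.8%). Their median was 17.5 CG, against 7 for all 32851 promoters of the table. The 66 genes with the most CG had a median difference between the days of -0.00993. Of these, 56 were lower and 37 (56.1%) lower without overlap, against 42.1% of all genes. The 66 in the middle had -0.00358 with 39 lower and 26 (39.4%) without overlap. The 66 with the fewest had -0.00509 with 42 and 28 (42.4%). The median ratio of day 7 to day 5 was 0.766 with the most CG, 0.864 in the middle and 0.783 with the fewest. Across genes the Spearman correlation of CG count and difference was -0.172. The 250 bases before the start, 5′ to 3′ on the strand of the gene with each CG in capitals, are given for the gene that passed the test, the gene with the largest difference, and the gene above 0.2 with the largest difference in the other direction. They lie at chrX:75578232-75578481 on the minus strand for Rab39b, chrX:23692801-23693050 on the plus strand for Wdr44 and chrX:101429401-101429650 on the plus strand for Nono.
Rab39b: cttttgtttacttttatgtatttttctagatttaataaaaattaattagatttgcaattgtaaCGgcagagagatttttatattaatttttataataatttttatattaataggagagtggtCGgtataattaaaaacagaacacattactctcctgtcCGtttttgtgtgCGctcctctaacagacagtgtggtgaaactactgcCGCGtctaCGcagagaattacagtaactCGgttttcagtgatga
Wdr44: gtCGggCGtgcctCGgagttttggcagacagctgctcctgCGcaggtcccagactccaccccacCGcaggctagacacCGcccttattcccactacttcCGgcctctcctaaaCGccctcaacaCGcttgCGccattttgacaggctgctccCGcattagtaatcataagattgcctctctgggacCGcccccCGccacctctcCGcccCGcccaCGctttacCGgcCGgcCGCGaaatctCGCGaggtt
Nono: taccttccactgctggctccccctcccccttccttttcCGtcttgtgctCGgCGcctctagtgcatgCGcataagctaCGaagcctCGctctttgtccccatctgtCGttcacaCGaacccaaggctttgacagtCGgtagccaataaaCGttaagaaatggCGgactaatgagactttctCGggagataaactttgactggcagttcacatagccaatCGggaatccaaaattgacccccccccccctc
CG on one strand is CG on the other, so both strands are counted at once. The stretches hold 8, 22 and 13 CG, and the windows of 300 bases 10, 26 and 23. As many or more were found in 43.5%, 16.9% and 21.5% of all promoters. These counts describe the sequence, and methylation was not measured in these files.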

How the data were processed

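ChrRNA-seq libraries of K518E, Halo-SMCHD1 and G137E were grouped by the line, day and replicate in the labels and column names. The authors sequenced read pairs of 81 bases, dropped those from rRNA (bowtie2 2.3.2), mapped the remainder with STAR (2.4.2a or 2.7.9a) to mm10 with SNPs masked, assigned unique alignments to alleles (SNPsplit 0.4.0dev, samtools 1.16.1) and ran featureCounts by strand over genes. From these they deposited, for every gene with 10 or more reads over SNPs, Xi/(Xi+Xa) as a fraction. The deposited table holds no read counts, so the depth, and with it the counting error and the reason for a value of 0, is unknown. Fractions are not normalised between libraries. No extraction or sequencing batch is given.

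Replicates were averaged per gene. Exact permutation tests, two-sided, were used for library medians and means. Genes were tested with limma 3.58.1 (R 4.3.3) on log2((r + 0.01)/(1 - r + 0.01)), in a fit of the 14 day 5 and day 7 libraries of the 3 lines, with Benjamini-Hochberg adjustment over 242 genes and a threshold of 0.05. The rest was done in Python 3.11.15 (pandas 2.3.3, numpy 2.4.6, matplotlib 3.10.9, scipy 1.17.1). Tested on simulated data for the K518E contrast on 242 genes, in 20 sets with 60 genes shifted by 3 log2 odds, limma recovered 77.6% of them, with 4.51% of calls at unshifted genes and 0 calls of the wrong sign. This shift is larger than the differences of the named genes, such as -2.13 for Pgrmc1 and -2.03 for Rab39b. Recovery of smaller shifts was not tested. The replicates are independent repeats of a single clone, so p-values measure the spread between repeats. Gene types are from GENCODE M21 and positions from the table, made 1-based.

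The genes named are Xist, Tsix, genes with a limma adjusted p below 0.05, the 10 largest negative and 5 largest positive differences without overlap of libraries, the 10 highest at day 7 and the member of each list with the largest difference. Others were named after their values were seen. The comparisons, gene lists and members were chosen with earlier results of these data known. The alternatives tried are given in the closing section. Read alignments and the table without K518E were not used here.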

Additional observations from a re-analysis of the deposited data

Results flagged for a closer look

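Rab39b passed the limma test of the difference between lines in the change from day 5 to day 7, but it could not have fallen in the other lines, whose libraries were listed at 0 at both days. The test therefore carries no more than the K518E values themselves. The difference between the change in K518E and that in Halo-SMCHD1 was -2.03 on the log2 odds scale, and against G137E it was also -2.03 (limma adjusted p = 0.0197 for each). The equal values come from the same 4 K518E libraries, 0.0408 and 0.0208 at day 5 and 0 in both at day 7. With the replicate block neither contrast passed (limma adjusted p = 0.162). Over the alternatives the adjusted p ranged from 9.19e-05 to 0.248 against Halo-SMCHD1 and from 9.19e-05 to 0.337 against G137E.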

How the results depend on the processing

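The difference in the mean over genes (-0.00835) stayed negative under every alternative, from -0.00351 with each gene divided by 2 times its level without dox to -0.00987 without the genes beyond 100 Mb, the latter chosen after seeing the data, and from -0.0108 to -0.00594 with a library left out. The library median difference ranged from -0.0128 to -0.00667 with a library left out. The share of silencing reached by day 5 moved from 98.2% to 94.3% on the log2 odds scale and to 99.2% with division by the level without dox, and was 97.7% to 98.7% with a library left out. The 34 genes above 0.1 at day 7 became 38 or 41 with a single library and 41 by the mean. The replicate numbers did not pair the K518E libraries (correlation of deviations 0.0145). With the replicate block the differences by number were -0.0093 and -0.00739, with a mean of -0.00835, and limma called 1 gene between the days and 0 in either contrast between lines. The limma count of 1 for K518E became 0 with untransformed fractions, with only the K518E libraries, and without genes listed at 0, and stayed at 1 with any K518E library left out (libraries of the other lines were not left out for this count). The count of 1 in each contrast between lines became 0 with a pseudocount of 0.05, untransformed fractions, only the lines compared, robust and trend estimation, and without genes listed at 0, and was 0 to 2 against Halo-SMCHD1 and 0 to 1 against G137E with a library left out. The cause was not tested. The spread of window medians was 0.00837 in windows of 20 Mb and moved to 0.0143 in windows of 10 Mb. Of 378 values of the 32 named genes under alternatives, 367 kept their direction and side of the threshold, 2 (both Rab39b) were no longer past it and 9 reversed, all with a library left out and none past the threshold. With a library left out the log2 odds differences of these genes ranged from -0.12 to 0.65 for Dynlt3, -0.44 to 0.23 for Phka1, -0.23 to 0.26 for Pin4, -0.10 to 0.063 for Plp2, -0.58 to 0.93 for Rpl10, -0.00044 to 0.0503 for Xist and -0.093 to 0.44 for Zfx. Read depth is unknown, so differences near 0 cannot be set against counting error.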
